A study of Mus musculus with 24 samples.

Results

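The *SOD1* G93A effect over the quiescent and activated states of cultured astrocytes was measured in 12 of the 24 RNA-seq libraries of the series. These are all the libraries labelled as astrocytes. WT and *SOD1* G93A were each represented by 6 libraries, 3 of quiescent and 3 of activated cells, and the other 12 libraries are of microglia. Quiescent astrocytes of both genotypes received PBS, and activated astrocytes of both genotypes received C1q (400 ng/mL) together with the cytokines TNFα (30 ng/mL) and IL-1α (3 ng/mL), the mixture that microglia are known to release and that drives astrocytes into a neurotoxic reactive state. The study compared the genotypes in each state separately, whereas the question here is which genes differed in the same direction in both.

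All astrocytes were primary postnatal cortical cells grown in serum-free medium with HBEGF at 5 ng/mL. Immunopanning, which binds cells to coated dishes, is described for WT mice at postnatal day 5. Panning dishes that used CD45, BSL I and O4 removed microglia, endothelial cells and oligodendrocyte lineage cells, and a dish against HepaCAM kept the astrocytes. The *SOD1* G93A line carries a mutant human *SOD1* transgene that causes motor neuron disease in mice, and it had been bred into C57BL/6J for 8 generations. The reads were aligned to the mouse genome, so the human transgene itself was not measured. The labels give neither the sex of the mice nor whether the 3 libraries of a group came from separate cultures or animals, and the p-values measure the spread between these libraries, which may be technical.

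Type I interferons signal through the receptor pair Ifnar1 and Ifnar2 to a transcription factor complex that contains Irf9 and binds an interferon-stimulated response element (ISRE) in the promoters of antiviral genes. Astrocytes also make much of the cholesterol and fatty acid of the brain, under the transcription factors Srebf1 and Srebf2, which Insig1 holds back in the endoplasmic reticulum when sterols are plentiful. Quiescent astrocytes take up glutamate and keep *Gfap* low, and reactive astrocytes raise *Gfap*, *Lcn2*, *Serpina3n* and, in the neurotoxic form, *C3*.

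Each value is a normalized count, the number of reads on a gene divided by the size factor of its library. Whole reads could be recovered from the deposited values, and the 12 libraries held 62334214 reads on genes, with a median of 4488635 and a range of 2016139 to 9526331. Quiescent WT libraries held 2016139, 3637657 and 9258718 reads and quiescent *SOD1* G93A libraries 9526331, 7251063 and 3292225. Activated WT libraries held 5047999, 6768201 and 5749391 reads and activated *SOD1* G93A libraries 3721779, 3929272 and 2135439. In the activated state each *SOD1* G93A library was therefore shallower than each WT library, and in the quiescent state the genotypes overlapped in depth. The deposited tables of the 2 states were scaled separately, so levels are compared within a state only. A total of 11807 genes, each averaging 10 or more normalized counts in both tables, were tested with limma on log2(normalized count + 1), with state as a term, so that the genotype difference is the average of both within-state differences. The added 1 understates the change of genes with few reads. A gene was called at an adjusted p-value under 0.05 with the same sign in both states.

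The mouse *Sod1* gene (chromosome 16, 90220754 to 90226329, GRCm38), which both genotypes carry, served as a check of the labels as far as mouse reads allow. It had 1385, 1307 and 1188 normalized counts in quiescent WT and 1259, 1319 and 1384 in quiescent *SOD1* G93A astrocytes. In activated astrocytes it had 1318, 1221 and 1268 in WT and 1215, 1363 and 1462 in *SOD1* G93A. The genotypes overlapped in both states, and the difference was 0.06 on the log2 scale (standard error 0.06, adjusted p = 0.69, limma). No read in these tables can tell the mutant transgene from its absence.

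The cells carried the markers of astrocytes in each of the 12 libraries. *Slc1a3*, a glutamate transporter, was the most abundant of 16 markers and had 8508 to 12988 normalized counts in the quiescent and 9226 to 10213 in the activated libraries. *Hepacam*, the protein used for the panning, had 2177 to 2985 and 935 to 1085, and *Aldh1l1*, a folate enzyme of astrocytes, had 1593 to 2593 and 875 to 1227. *Slc1a2*, the other main glutamate transporter, had 2210.4 to 3246 and 1227 to 1329.5. Of the 14 astrocyte markers tested, 1 rose (*Acsbg1*) and 1 fell (*Gfap*), with a median difference of −0.01 against −0.00 over all genes tested. The median was −0.27 in quiescent and 0.10 in activated cells, where 6 of the 14 were called higher (4.57% of all genes) and 2 lower (2.56%). The markers *Gjb6* and *S100b* fell short of the minimum mean, and *Gjb6* had 3 or fewer reads in each library.

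Transcripts that mark the sex of the cells moved with genotype in both states. *Xist*, which silences the second X chromosome of female cells, had 4349.6, 3269.5 and 1345 normalized counts in quiescent WT and 5818, 12109 and 16907 in quiescent *SOD1* G93A astrocytes. After activation it had 2199, 2050.3 and 1818 in WT and 5793, 4607 and 3622 in *SOD1* G93A. *Kdm5d*, a histone demethylase on the Y chromosome (897788 to 956786), had 216, 236 and 183 in quiescent WT and 82.0, 87.6 and 96.3 in quiescent *SOD1* G93A astrocytes, and 152, 149 and 121 against 55.5, 51.7 and 44.8 after activation. In neither gene did the genotypes overlap in either state, and all 12 libraries held both *Xist* and Y-linked reads.

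*Kdm5d* had the lowest adjusted p-value of all genes tested, with a fall of the log2 level by 1.35 (standard error 0.10, adjusted p = 2.1e-06, limma). All 4 Y-linked genes fell, with differences of −1.06 for *Ddx3y*, −1.04 for *Eif2s3y* and −1.18 for *Uty*, and a list median of −1.12. Y-linked genes such as *Ddx3y* and *Eif2s3y* have close relatives on the X chromosome, to which some of their reads could have been assigned. The mean log2 level of the 4 genes differed by −1.16 (6 libraries against 6, exact two-sided permutation within states, p = 0.005, adjusted over 5 library measures 0.0125), and that of *Xist* by 1.59 (exact permutation p = 0.005, adjusted 0.0125). A p of 0.005 is the smallest that the 400 arrangements can give. The other 3 measures did not differ at this test. Log2 reads differed by −0.15 (exact permutation p = 0.74), by 0.58 in the quiescent and −0.88 in the activated state. Genes detected differed by −84.0 (p = 0.78, exact permutation), by 532 in the quiescent and −700 in the activated state. The share of reads in the 10 most abundant genes differed by 0.078 percentage points (p = 0.335, exact permutation), by −0.019 in the quiescent and 0.176 in the activated state. Activated libraries did not overlap in either measure. Genes detected were 15237, 15516 and 15281 in activated WT against 14875, 14876 and 14183 in activated *SOD1* G93A. The shares were 4.53, 4.45 and 4.57% against 4.61, 4.68 and 4.78%. Among 5 X-linked genes that escape inactivation, *Xist* and *Kdm6a* rose, *Kdm6a* by 0.35 (adjusted p = 0.034, limma), a call kept in 5 of the 12 fits that left out 1 library, and the median was 0.26. Because the Y-linked level separates the genotypes without overlap, genotype and the sex mix of the cultures cannot be told apart in these libraries, and this holds for each gene group described from here on. When the mean Y-linked level was entered as a term, the standard error of the genotype difference grew by a factor of 3.75 from the design alone. Of 71 named called genes 20 remained called and 15 changed sign. Because the term moves with genotype, a call kept in that fit does not separate genotype from the sex mix.

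Over both states, 386 of 11807 genes (3.27%) were called. The condition on sign removed none of the genes with an adjusted p under 0.05. A call therefore rests on the average difference and does not show an effect in each state. *SOD1* G93A astrocytes had more of 234 of them (1.98%) and less of 152 (1.29%). Counts of called members in each gene group are to be read against these shares. The median difference was 0.48 on the log2 scale among genes that rose and −0.45 among genes that fell, and the smallest called difference was 0.21. A change of more than 1.5-fold was reached by 140 called genes and of more than 2-fold by 43, of which 34 rose and 9 fell. At the limits that the study used within states, an adjusted p under 0.001 and more than 2-fold, 5 genes (0.0423%) passed, *Dio2* and *Rab26* higher and *Kdm5d*, *Ddx3y* and *Eif2s3y* lower. That count was 38 in DESeq2 (27 higher, 11 lower), the tool the study used, 22 in edgeR, and 23 in limma without quiescent WT replicate 3. The last gene inside the limit on adjusted p was *Tsc22d3* (0.0498) and the first outside was *Fads2* (0.0501). The number of calls depended on single libraries: it was 204 without activated WT replicate 1, 232 without activated WT replicate 2, and 253 without activated WT replicate 3 or quiescent *SOD1* G93A replicate 2.

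In 481 genes (4.07%) the genotypes did not overlap in either state and differed in the same direction, 238 higher (2.02%) and 243 lower (2.06%), and 274 of these genes were called. Fitted separately, the activated state gave 842 called genes (7.13%), 540 higher (4.57%) and 302 lower (2.56%). The quiescent state gave 7 (0.0593%), *Thy1* and *Thrb* higher (0.0169%) and *Ddx3y*, *Gabbr1*, *Gpr17*, *Kdm5d* and *Tagln* lower (0.0423%), and of the 386 genes 294 were also called in the separate activated fit, 7 in the quiescent one and 89 in neither. Of the 386 genes, 252 had an unadjusted p under 0.05 in both states, 238 had the larger difference in the activated and 148 in the quiescent state. Across all 11807 genes the quiescent and activated differences, which share no library, had the same sign in 6810 (57.7%), with a Pearson correlation of 0.23. That value is taken across genes, and genes are not replicates of each other. An unadjusted p under 0.05 was reached by 2383 genes (20.2%) in activated and 1027 (8.70%) in quiescent cells. Of the 1027 genes with an unadjusted p under 0.05 in quiescent cells, 731 (71.2%) had the same sign in activated cells, and of the 842 genes called in activated cells 647 (76.8%) had the same sign in quiescent cells.

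**Figure D1:**
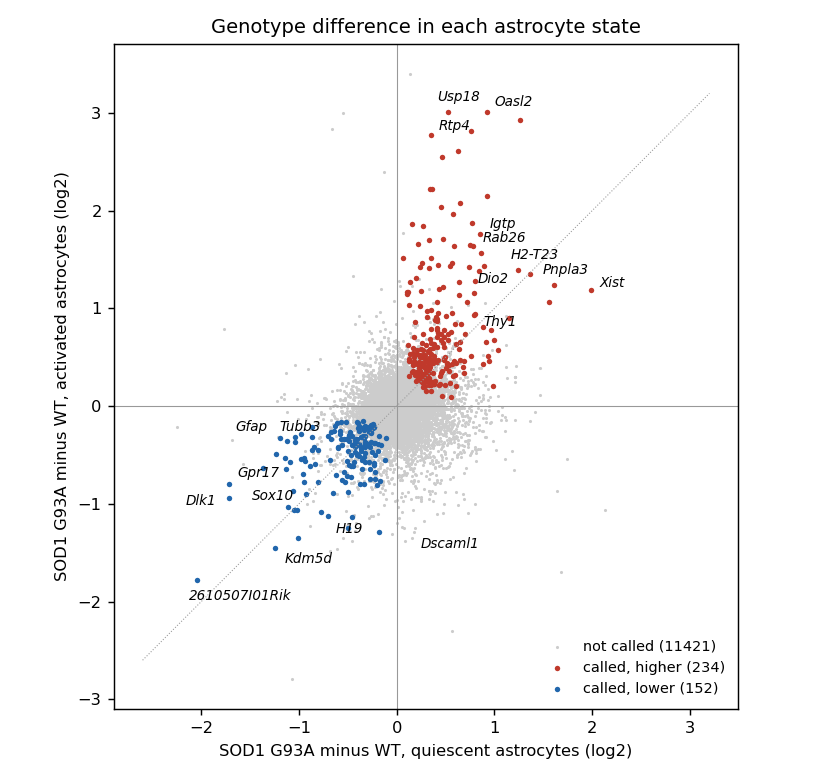
Difference between *SOD1* G93A and WT in quiescent (x axis) and activated astrocytes (y axis), each in log2(normalized count + 1), for 11807 genes, with the 234 genes called higher in red, the 152 called lower in blue and the others in grey. The dotted line marks equal differences in both states, and interferon-stimulated genes such as *Oasl2* lie above it with 0.93 in quiescent and 3.01 in activated cells.

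Genes that interferon induces, such as *Oasl2*, *Ifit3* and *Usp18*, were among those with the largest rises. Of 40 interferon-stimulated genes 31 could be tested, 24 rose (1.98% of all genes) and none of the 31 fell (1.29%) in limma. Their median difference was 0.99 over both states, 0.45 in quiescent and 1.46 in activated cells, where the medians over all genes tested were −0.00, 0.00 and −0.00. Of the 31 genes 28 were higher in both states, against 28.6% of all genes tested. In quiescent cells 11 of them were higher without overlap of the genotypes (7.02% of all genes) and *Ifit2* was lower without overlap, and in activated cells 30 were higher without overlap (12.5%).

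*Oasl2* (chromosome 5, 114896936 to 114912234), a relative of the oligoadenylate synthetases that sense viral RNA, had 24.6, 26.0 and 40.9 normalized counts in quiescent WT and 56.6, 59.3 and 56.3 in quiescent *SOD1* G93A astrocytes. After activation it had 63.1, 56.6 and 73.2 in WT and 701, 426 and 478 in *SOD1* G93A. Every *SOD1* G93A library lay above every WT library of its state, and the difference was 1.97 over both states (standard error 0.29, adjusted p = 0.0012, limma), with 0.93 in quiescent and 3.01 in activated cells. *Ifit3* (chromosome 19, 34583531 to 34588731), which binds to Ifit1 on foreign RNA, had 34.4, 23.2 and 41.5 in quiescent WT and 64.5, 56.6 and 45.9 in quiescent *SOD1* G93A cells, and 42.4, 59.1 and 61.4 against 459.8, 323 and 375 after activation. Again the genotypes did not overlap, and *Ifit3* rose by 1.79 (standard error 0.29, adjusted p = 0.0026, limma). *Usp18* (chromosome 6, 121245906 to 121270917), which removes Isg15 from proteins and brakes the interferon receptor, had 17.2, 15.04 and 18.3 against 27.5, 24.3 and 22.2 in quiescent and 27.4, 18.5 and 19.2 against 199, 163 and 177 in activated cells. Its separation in quiescent cells rests on 7 to 33 reads per WT library, and its difference was 1.77 (adjusted p = 0.0062, limma).

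Some members of the list that act in signalling or sense RNA were called, and *Stat2*, *Irf9*, *Irf7* and *Isg15* were picked after their values were seen. *Stat2* (0.63, adjusted p = 0.024, limma) and its partner *Irf9* (0.94, adjusted p = 0.0057, limma) rose, as did *Irf7* (0.96, adjusted p = 0.0059, limma), the factor that amplifies the response. *Irf7* had 41.8, 68.3 and 76.3 normalized counts in quiescent WT and 106, 89.7 and 88.9 in quiescent *SOD1* G93A astrocytes, and 56.5, 92.9 and 63.6 against 228, 143 and 149 in activated cells, with no overlap in either state. The cytosolic RNA sensors *Ddx58* (RIG-I) and *Ifih1* (MDA5) rose by 1.16 and 1.21. *Ddx58* had 24.6, 60.1 and 72.5 in quiescent WT and 97.9, 89.0 and 81.5 in quiescent *SOD1* G93A cells, and 152, 135 and 171 against 524, 353 and 381 in activated cells. *Isg15*, the ubiquitin-like tag, rose by 1.54, although its quiescent libraries overlapped at 4.91, 10.9 and 19.4 against 21.2, 27.0 and 14.8. *Cxcl10*, a chemokine that draws T cells, was the single called gene of 20 chemokines and cytokines tested and rose by 1.09 (adjusted p = 0.0042, limma), with overlap in quiescent and none in activated cells, at 464, 487 and 518 against 1869, 1548 and 1417.

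The 7 interferon-stimulated genes that were tested and not called were *Oas3*, *Ifitm3*, *Ifit2*, *Zbp1*, *Oasl1*, *Oas1a* and *Cmpk2*, with differences from 0.07 to 0.92. *Ifit2* shows that members did not all behave alike, with 327, 332 and 379 normalized counts in quiescent WT and 299, 320.2 and 276 in quiescent *SOD1* G93A astrocytes but 105, 118 and 93.1 against 259, 182 and 171 after activation. The summed level of all 40 genes was 1542, 1834 and 2117 in quiescent WT and 2425, 2375 and 1990.0 in quiescent *SOD1* G93A libraries, which overlap. It was 2991, 3129.9 and 3080.2 in activated WT and 11354, 8033 and 8425 in activated *SOD1* G93A libraries. *Ifnb1*, which encodes interferon beta, was at 0 in all 12 libraries, and the receptor genes *Ifnar1* (0.06, adjusted p = 0.64, limma) and *Ifnar2* (−0.03, adjusted p = 0.87, limma) were not called, these 3 genes having been chosen after their values were seen. Within quiescent cells alone none of the 31 genes was called in limma, 9 had an unadjusted p under 0.05 and a rise (4.21% of all genes did), and within activated cells 28 were called (4.57% of all genes were called and higher).

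With the Y-linked level as a term, 0 of the 31 genes were called and their median was −0.20. With log2 depth as a term within each state, an alternative chosen after seeing the data, 19 were called and the median was 0.73, and 16 to 26 were called when 1 library was left out. The part of the sex mix and of depth in these rises was not tested further.

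Some interferon-inducible GTPases, a family that attacks vacuoles that hold microbes, rose as well. *Igtp* (chromosome 11, 58199556 to 58207591) had 7.37, 9.57 and 10.5 normalized counts in quiescent WT and 18.5, 16.9 and 16.3 in quiescent *SOD1* G93A astrocytes. In activated cells it had 31.6, 30.8 and 32.5 in WT and 135, 95.8 and 102 in *SOD1* G93A. There was no overlap in either state, on 3 to 19 reads per quiescent WT library, and the difference was 1.31 (standard error 0.19, adjusted p = 0.0011, limma). *Gbp9* rose by 1.32 (adjusted p = 0.0012, limma) and also separated the genotypes in both states. Reads of these families are uncertain, since *Igtp* shares its span with *Irgm2* and *Gbp9* with *Gbp4*, and family members are much alike. *Irgm1* (0.94), *Irgm2* (1.11), *Gbp3* (1.02), *Gbp6* (0.89) and *Gbp7* (0.79), which were chosen after their values were seen, were called too, each with overlap in quiescent cells and none in activated cells. *Gbp2* (0.15, adjusted p = 0.54, limma), a neurotoxic reactive marker of the same family, was not called, nor was *Gbp5* (0.44).

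Some genes of MHC class I presentation, by which a cell shows peptides to CD8 T cells, rose. Of 16 genes tested of 20, 8 rose (1.98% of all genes), 8 were not called and 12 were higher in both states (28.6%). The median was 0.54 over both states, 0.26 in quiescent and 0.75 in activated cells. *H2-T23* (chromosome 17, 36029773 to 36032855), the nonclassical Qa-1 molecule, had 7.37, 17.8 and 21.6 normalized counts in quiescent WT and 38.6, 34.4 and 32.6 in quiescent *SOD1* G93A astrocytes, and 15.8, 24.6 and 17.0 against 53.1, 50.6 and 48.9 in activated cells. The genotypes did not overlap, although the quiescent WT libraries held as few as 3 reads. The difference was 1.24 in quiescent and 1.39 in activated cells, with an average of 1.32 (standard error 0.22, adjusted p = 0.0027, limma). *B2m*, the light chain that all these molecules share, had 759, 976 and 968 in quiescent WT and 1232, 1265 and 1065 in quiescent *SOD1* G93A cells, and 1148, 1294 and 1093 against 2414, 1994 and 2246 in activated cells. It rose by 0.66 with no overlap in either state (adjusted p = 0.0015, limma). The heavy chains *H2-K1* (0.69), *H2-D1* (0.65) and *H2-Q4* (0.70), the peptide transporter *Tap1* (0.71), the immunoproteasome subunit *Psmb8* (0.87) and the proteasome activator *Psme1* (0.26) were the other called members. Near-identical sequence makes the assignment of reads among H2 genes uncertain. Without 1 library 4 to 10 of the 16 were called, 4 without any 1 of the activated WT replicates or without activated *SOD1* G93A replicate 3, and limma without a trend called 5. Of 12 fits without 1 library, *Psmb8* was called in 4, *H2-Q4* in 6 and *Tap1* in 8, and with the Y-linked level as a term 1 of the 16 genes was called and the median was −0.02. *H2-T23*, *Psmb8* and *H2-D1* are also the 3 called genes of 9 tested neurotoxic reactive markers, so those calls are not a separate observation.

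Promoter sequence, which the choice of libraries did not use, was searched for letters of the ISRE core, GAAANNGAA, on both strands from 250 bases before to 50 bases after the start of each gene in the RefSeq table for GRCm38.p6. The motif was chosen after the expression values were seen, and a form with 1 more A at its end was searched before this one. The letters occur in 2638 of 27025 promoters (9.76%) and in 756 of the 9053 tested genes that matched the table by symbol (8.35%). They occur in 33 of the 173 matched genes called higher (19.1%) and in 7 of the 109 called lower (6.42%). Among interferon-stimulated genes 13 of 23 matched members held them (56.5%), as did 5 of 14 genes of MHC class I presentation (35.7%). Letters of the sterol response element, TCACCCCAC, occur in 166 promoters of the table (0.614%) and in 62 of the 9053 tested genes (0.685%). They occur in 1 of the 21 matched genes of sterol and fatty acid synthesis (4.76%), in 0 of the 6 of these that were called, in 1 of the 173 genes called higher (0.578%) and in 2 of the 109 called lower (1.83%). A form of this element with 1 more A at its start was searched first, also with the expression values known. A match describes the letters and does not show a site in use. Of 37 named genes called higher, 28 matched the table and 9 held the ISRE letters. The 4 of these with the largest rise are printed from the 5′ to the 3′ end of the gene's strand, to show where in the promoter the letters lie in members that rose together, with matches in capitals (those that start with TTC lie on the opposite strand). They lie at chr19:34583279-34583578 (+ strand) for *Ifit3*, chr19:34640639-34640938 (+ strand) for *Ifit1*, chr17:36032652-36032951 (− strand) for *H2-T23* and chr11:58199306-58199605 (+ strand) for *Igtp*.
Ifit3: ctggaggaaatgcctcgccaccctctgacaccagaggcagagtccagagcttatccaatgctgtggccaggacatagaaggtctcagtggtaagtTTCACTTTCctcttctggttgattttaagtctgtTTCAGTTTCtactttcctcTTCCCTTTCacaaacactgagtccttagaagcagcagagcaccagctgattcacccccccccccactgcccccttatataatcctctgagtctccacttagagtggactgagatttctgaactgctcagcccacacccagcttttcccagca
Ifit1: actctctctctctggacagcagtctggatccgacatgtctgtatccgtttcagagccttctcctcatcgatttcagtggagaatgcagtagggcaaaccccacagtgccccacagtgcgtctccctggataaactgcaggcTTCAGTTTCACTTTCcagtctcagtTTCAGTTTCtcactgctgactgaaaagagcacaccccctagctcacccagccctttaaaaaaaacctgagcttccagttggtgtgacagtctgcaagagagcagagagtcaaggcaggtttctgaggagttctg
H2-T23: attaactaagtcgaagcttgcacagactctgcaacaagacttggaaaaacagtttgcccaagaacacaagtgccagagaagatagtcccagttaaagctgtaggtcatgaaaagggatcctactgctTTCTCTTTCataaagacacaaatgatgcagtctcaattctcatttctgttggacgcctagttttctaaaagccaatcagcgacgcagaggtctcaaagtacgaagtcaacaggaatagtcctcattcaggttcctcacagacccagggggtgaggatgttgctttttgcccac
Igtp: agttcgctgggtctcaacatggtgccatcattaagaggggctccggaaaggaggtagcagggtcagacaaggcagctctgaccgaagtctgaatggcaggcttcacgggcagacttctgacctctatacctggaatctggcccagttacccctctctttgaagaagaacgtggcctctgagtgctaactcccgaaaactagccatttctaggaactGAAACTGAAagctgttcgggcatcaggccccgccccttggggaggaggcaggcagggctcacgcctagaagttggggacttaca

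*Ifit3* and *Ifit1* each hold the letters at 3 places, which start at bases 96, 130 and 149 and at bases 142, 148 and 167 of the printed stretch, the first pair in *Ifit1* overlapping. *H2-T23* and *Igtp* hold them once, at bases 128 and 217. The RefSeq start used for *H2-T23* lies inside the gene span given above, and so does its match, so the annotations disagree on what lies before the gene. *Ifit1* itself rose by 1.62 (standard error 0.30, adjusted p = 0.0052, limma), with 22.1, 34.2 and 45.4 normalized counts against 52.9, 58.0 and 43.0 in quiescent cells, which overlap, and 34.9, 59.1 and 44.4 against 372, 249.9 and 236 in activated cells, which do not.

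**Figure D2:**
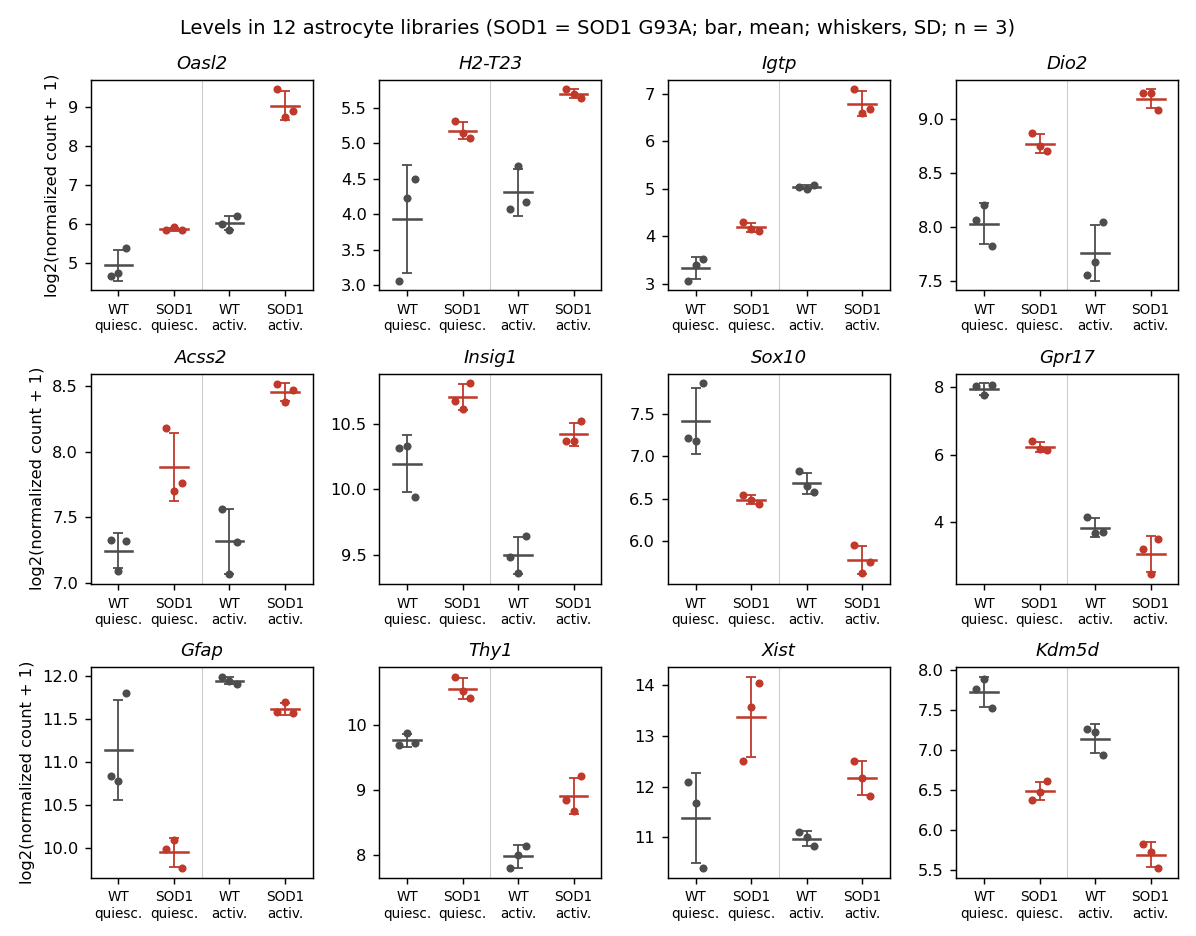
Levels of 12 genes in each of the 12 libraries as log2(normalized count + 1), with 3 libraries per group as points, a bar at the mean and whiskers of 1 SD, WT in grey and *SOD1* G93A (labelled SOD1) in red. The scales of the 2 states are separate, and in each of the 12 genes the genotypes do not overlap in either state.

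Some genes of lipid synthesis rose. Of 30 genes of sterol and fatty acid synthesis, all of which could be tested, 9 rose (1.98% of all genes) and none fell (1.29%) in limma. The median was 0.17 over both states, −0.00 in quiescent and 0.40 in activated cells, and 15 of the 30 were higher in both states (28.6% of all genes). The difference between the states was called in 0 of the 30 (limma). *Acss2* (chromosome 2, 155517948 to 155585724), which makes acetyl-CoA from acetate in the cytosol, had 159.6, 135 and 159 normalized counts in quiescent WT and 288, 207 and 216 in quiescent *SOD1* G93A astrocytes. After activation it had 189, 133 and 158 in WT and 364, 333 and 354 in *SOD1* G93A. The genotypes did not overlap and *Acss2* rose by 0.89 (standard error 0.11, adjusted p = 0.00043, limma). *Insig1* (chromosome 5, 28071363 to 28078662), the sterol-sensing anchor of the Srebf proteins and itself one of their targets, had 1275, 1286 and 984 against 1638, 1570.1 and 1797 in quiescent cells and 714, 656 and 801 against 1322, 1321 and 1472 in activated cells. It rose by 0.72 (standard error 0.09, adjusted p = 0.00037, limma) with no overlap and was called in all 29 alternative fits, at 0.64 to 1.02. These include the fit with the Y-linked level, which cannot separate genotype from the sex mix.

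Of the 30 genes 21 were not called. *Srebf1* rose by 0.38, the fatty acid synthase *Fasn* by 0.41, the elongase *Elovl6* by 0.44 and the desaturase *Scd1* by 0.64, and in these 4 genes the genotypes did not overlap in either state. *Scd1* had 5222, 6203 and 4829 normalized counts in quiescent WT and 8237, 6867 and 6250.1 in quiescent *SOD1* G93A astrocytes, and 4082, 4048 and 4864 against 7962, 7438 and 8527 in activated cells. The desaturase *Scd2* (0.25), *Acaca* (0.14) and *Acly* (0.15) were not called. *Dhcr7*, which acts late in cholesterol synthesis, rose by 0.35. *Srebf2* (0.01), *Sqle* (0.08), *Fdft1* (0.03) and *Hmgcs1* (0.12) were not called. In activated cells alone 23 of the 30 genes were called, all higher (4.57% of all genes), and in quiescent cells alone none was called in limma and 5 had an unadjusted p under 0.05 and a higher level (4.21% of all genes). With the Y-linked level as a term 1 gene of the list was called and the median was −0.32, and with depth within each state 7 were called, 1 of them lower. Without 1 library 5 to 10 were called, 5 without activated WT replicate 1, and limma without a trend called 5.

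Some lipid genes outside that list rose. *Pnpla3* (chromosome 15, 84167837 to 84187236), a lipid droplet enzyme and known target of Srebf1, had 12.3, 24.6 and 7.74 normalized counts in quiescent WT and 28.6, 41.1 and 66.7 in quiescent *SOD1* G93A astrocytes, and 24.9, 21.5 and 14.04 against 58.9, 36.3 and 50.9 in activated cells. It rose by 1.42 with no overlap (standard error 0.26, adjusted p = 0.0057, limma), on 5 to 61 reads per library. *Thrsp* (chromosome 7, 97412938 to 97417730), a nuclear protein that raises lipid synthesis and responds to thyroid hormone, had 270.2, 265 and 140.5 against 374, 415 and 379 in quiescent and 42.4, 65.2 and 62.1 against 166, 109 and 175 in activated cells. It rose by 1.12 (adjusted p = 0.0019, limma), and like *Pnpla3* it remained called in each alternative that could test it. Over these fits the difference spanned 1.001 to 1.76 for *Thrsp* and 1.23 to 4.28 for *Pnpla3*. The fit with the Y-linked level is among them, but it cannot separate genotype from the sex mix. *Lpin1*, a phosphatase on the way to triglyceride that was chosen after its values were seen, rose by 0.51 with no overlap (adjusted p = 0.00095, limma).

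*Dio2* (chromosome 12, 90724552 to 90738438) encodes the deiodinase by which astrocytes turn thyroxine into active thyroid hormone for neurons. It had 268, 294 and 226 normalized counts in quiescent WT and 467, 429 and 415 in quiescent *SOD1* G93A astrocytes, and 188, 204 and 264 against 602, 602 and 542 after activation. With no overlap in either state it rose by 1.08 (standard error 0.12, adjusted p = 0.00015, limma), 0.74 in quiescent and 1.42 in activated cells. *Rab26* (chromosome 17, 24527241 to 24534210), a small GTPase of secretory vesicles, had 295, 306 and 200.2 against 445, 448 and 465 in quiescent and 43.2, 52.9 and 51.7 against 168, 161 and 138 in activated cells. It rose by 1.21 (standard error 0.14, adjusted p = 0.00025, limma) and was called in all 29 alternative fits, although part of its span is shared with *Traf7* (−0.13) and with an antisense transcript. The library preparation was strand-specific, but the labels do not say whether strand was used in counting. The secreted phospholipase *Pla2g3* (1.31) and the thrombin-type receptor *F2rl2* (1.36) rose as well. *F2rl2* had 2.46, 9.57 and 12.2 normalized counts in quiescent WT libraries, as few as 1 read, so that its fold change is imprecise. *Thy1*, a surface glycoprotein that was chosen after its values were seen, had 823, 934 and 842 in quiescent WT and 1702, 1460.3 and 1362 in quiescent *SOD1* G93A cells, and 221, 254 and 281 against 459, 405 and 592 in activated cells. It rose by 0.86 (standard error 0.09, adjusted p = 0.0001, limma), an adjusted p lower than that of any other gene tested but *Kdm5d* and *Ddx3y*.

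A few genes of other lists rose. *Txn1*, the redox protein thioredoxin, had 1238, 928 and 597 normalized counts in quiescent WT and 1343, 1690.2 and 1912 in quiescent *SOD1* G93A astrocytes, and 500.1, 526 and 553 against 662, 709 and 761 in activated cells. It rose by 0.66 (adjusted p = 0.013, limma) with no overlap, although not called without the trend in limma, and it was the one riser among 34 antioxidant and NRF2 target genes tested, where *Gstp1* fell by 0.25 and the median was −0.04. *Jag1*, a Notch ligand, had 120.3, 103 and 147 against 198, 204 and 159 in quiescent and 276, 305 and 325 against 397, 442 and 391 in activated cells, and rose by 0.52 (adjusted p = 0.0043, limma). *Acsbg1*, an acyl-CoA synthetase typical of astrocytes, rose by 0.45 and was the single called gene of 23 transporters and support genes, which had a median of 0.04. The list median was −0.12 in quiescent and 0.19 in activated cells, where 11 of the 23 were called higher (4.57% of all genes) and 2 lower (2.56%). Of 22 immediate early genes *Nr4a1* (0.45) and *Zfp36* (0.39) rose and the median was 0.18, and *Nr4a1* was called in 7 of 12 fits without 1 library. Among the ischemia-type reactive markers *B3gnt5*, which starts a class of glycolipids, rose by 0.35.

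Of 45 nuclear-encoded subunits of the respiratory chain tested, 3 were called (3.27% of all genes) and 30 had an unadjusted p under 0.05 (16.5% of all genes). The 3 were *Cox6c* (0.47), *Ndufa2* (0.33) and *Sdhc* (0.23). The difference was above 0 in both states in 42 of the 45 (28.6% of all genes), with a median of 0.23. In activated cells alone 23 of the 45 were called, all higher (4.57% of all genes), and 36 were higher without overlap (12.5%). In quiescent cells alone 0 were called. *Cox6c* was called in 8, *Ndufa2* in 1 and *Sdhc* in 1 of the 12 fits without 1 library, and DESeq2 and edgeR on the reads called 3 subunits each. Over both states none of 35 ribosomal protein genes was called in limma, DESeq2 or edgeR, and 0 had an unadjusted p under 0.05 in limma. Of the 35 genes 30 were higher in both states and the median was 0.13. In activated cells alone 6 of the 35 were called, all higher (4.57% of all genes), and 16 were higher without overlap (12.5%). The counts over both states depended on the fit. Of the 45 subunits 0 were called in limma without a trend, with reads thinned (chosen after seeing the data), and without any 1 of quiescent *SOD1* G93A replicate 2, activated WT replicates 1 and 3 and activated *SOD1* G93A replicate 2. With log2 depth as a term within each state 30 of 45 and 25 of 35 were called, all higher, and with 1 depth term over both states 5 and 0. With the Y-linked level as a term 28 of 45 (median 0.95) and 29 of 35 (median 1.14) were called, all higher, and without quiescent WT replicate 1 the calls were 16 and 0. The part of depth and of the sex mix was not tested. Transcripts encoded by the mitochondrial genome were not analysed here.

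The genes that fell included several of the oligodendrocyte lineage, a cell type that the O4 dish removes. Of 20 markers 13 were tested, 4 fell (1.29% of all genes) and none rose (1.98%) in limma, with a median of −0.00. *Sox10* (chromosome 15, 79154908 to 79165240), the transcription factor that defines the lineage, had 147, 144 and 231 normalized counts in quiescent WT and 92.1, 89.0 and 85.9 in quiescent *SOD1* G93A astrocytes, and 112, 99.1 and 94.6 against 61.2, 48.4 and 52.9 in activated cells. It fell by 0.91 on the log2 scale with no overlap (standard error 0.12, adjusted p = 0.00042, limma), almost equally in quiescent (−0.92) and activated cells (−0.90), and was called in all 29 alternative fits. *Gpr17* (chromosome 18, 31942997 to 31949636), a receptor of committed precursors, had 260.3, 216 and 269 against 84.1, 70.1 and 69.6 in quiescent and 16.6, 11.7 and 11.8 against 8.09, 4.40 and 10.2 in activated cells. It fell by 1.26 (standard error 0.21, adjusted p = 0.0027, limma), with 4 to 7 reads per activated *SOD1* G93A library. *Tnr*, a matrix glycoprotein, fell by 0.75 and *Pdgfra*, the growth factor receptor of precursors, by 0.50.

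Other markers of the lineage did not move with them. *Olig1*, the most abundant of the list, had 9176, 9038 and 8844 normalized counts in quiescent WT and 11400.0, 10061 and 9977 in quiescent *SOD1* G93A astrocytes, and 2217, 2298 and 2175 against 2239.9, 2228 and 2563 in activated cells. *Olig1* (0.14) and *Olig2* (0.08), which astrocyte precursors also express, were not called, nor was the myelin gene *Mbp* (0.43), and *Mog* and *Opalin* had 3 or fewer reads in every library. The summed level of the 20 markers was 16146, 15738 and 15783 in quiescent WT and 18344, 16566 and 16720 in quiescent *SOD1* G93A libraries, and 4988, 5103 and 4906 against 4979, 4882 and 5222 after activation. In bulk libraries fewer cells of a type and less RNA per cell cannot be told apart, and whether the fall of *Sox10*, *Gpr17*, *Tnr* and *Pdgfra* came with fewer cells of the lineage was not tested.

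Reactive markers split. *Gfap* (chromosome 11, 102887336 to 102900912), the intermediate filament of reactive astrocytes, had 1829.7, 1752 and 3581 normalized counts in quiescent WT and 1016, 1090.1 and 869.8 in quiescent *SOD1* G93A astrocytes. In activated cells it had 4063, 3918 and 3834 in WT and 3062, 3315 and 3038 in *SOD1* G93A. All *SOD1* G93A libraries lay below the WT libraries of their state, and *Gfap* fell by 0.76 (standard error 0.17, adjusted p = 0.016, limma), by 1.19 in quiescent and 0.33 in activated cells, although it was not called without the trend in limma. Of 11 pan-reactive markers tested *Gfap* and the sphingosine receptor *S1pr3* (−0.79) fell, *Cxcl10* rose, and the median was −0.08. In activated cells alone 5 of the 11 were called lower (2.56% of all genes) and 1 higher (4.57%), and over both states DESeq2 and edgeR each called 4 lower and limma without a trend 0. Of 10 ischemia-type markers *Cd109* (−0.59) and *Emp1* (−0.43) fell, *B3gnt5* rose, and the median was −0.10. The marker *C3* differed by 0.11 (adjusted p = 0.75, limma), *Lcn2* by 0.05 (adjusted p = 0.86, limma) and *Serpina3n* by −0.08 (adjusted p = 0.88, limma). None of these 3 was called over both states in any alternative, and in each the states had opposite signs. The difference was 0.49 in quiescent and −0.26 in activated cells for *C3*, 0.32 and −0.22 for *Lcn2* and 0.48 and −0.64 for *Serpina3n*, and in activated cells all 3 were lower without overlap. The interaction was not called (adjusted p = 0.35, 0.41 and 0.12, limma). The median of the 9 neurotoxic markers tested was 0.15, and in activated cells alone 4 were called higher (4.57% of all genes) and 3 lower (2.56%). Of 17 NF-κB subunits, inhibitors and targets 0 were called in limma (2 at an unadjusted p under 0.05), 1 in DESeq2 and 0 in edgeR, with a median of 0.15. The 20 chemokines and cytokines had a median of 0.17, with 0.52 in quiescent cells, where 6 had an unadjusted p under 0.05 and a rise (4.21% of all genes did). Their median was −0.11 in activated cells, where 3 were called higher (4.57% of all genes) and 3 lower (2.56%).

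Genes typical of contractile, vascular, neuronal and ciliated cells fell where they were called. Of 19 markers of pericytes, smooth muscle and fibroblasts 8 were tested and 3 fell (1.29% of all genes), with a list median of −0.30. The 3 were the integrin *Itga7* (−0.84, adjusted p = 0.0074, limma), the actin-binding *Tagln* (−0.70, adjusted p = 0.0037, limma) and *Pdgfra*. *Itga7*, the most abundant of them in activated but not in quiescent cells, had 172, 209 and 407 normalized counts against 101, 109 and 120.0 in quiescent and 985, 854 and 830.1 against 647, 622 and 572 in activated cells. *Kcnj8* and *Abcc9*, which define pericytes, had 3 or fewer reads in each library, and the list summed to 1616, 1853.5 and 2316 against 1509, 1503 and 1362 in quiescent and 2117, 2079 and 1880.5 against 1597, 1549 and 1466 in activated cells. Of 12 endothelial markers *Flt1* alone passed the minimum mean, and it fell by 0.50, while *Cldn5*, *Tie1* and *Ly6c1* were at 0 in all 12 libraries. The endothelial list summed to 58.9, 58.8 and 81.3 against 48.7, 51.2 and 47.4 in quiescent and 584, 628 and 665 against 512, 509.8 and 495 in activated cells.

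Of 15 neuronal markers 9 were tested, with a list median of −0.44. The microtubule genes *Dcx* (−0.79, adjusted p = 0.009, limma) and *Tubb3* (−0.74, adjusted p = 0.0086, limma) fell (1.29% of all genes were called lower). *Tubb3* had 51.6, 54.7 and 51.4 normalized counts against 24.9, 20.9 and 25.2 in quiescent and 83.1, 103 and 84.3 against 75.1, 62.8 and 71.3 in activated cells, with no overlap. *Map2* was the most abundant of the list and was not called (0.07), *Slc17a6* was at 0 in all 12 libraries, and *Nefh* had 3 or fewer reads in each. With reads thinned to the depth of the shallowest library, an alternative chosen after seeing the data, neither *Dcx* nor *Tubb3* was called. The list summed to 4889.9, 5081 and 4062 in quiescent WT, 4789 to 5057 in quiescent *SOD1* G93A, 1938 to 2158 in activated WT and 1892 to 2026 in activated *SOD1* G93A libraries. Of 10 ependymal markers 3 were tested, with a list median of −0.32. *Foxj1*, the regulator of motile cilia, fell by 0.32 (1.29% of all genes were called lower), a call kept in 4 of 12 fits without 1 library. *Foxj1* is the most abundant of that list, whose sum was 361, 399 and 497 against 317, 320.2 and 325 in quiescent and 245, 235 and 234 against 207, 197 and 199.5 in activated cells. The part of such cells in these falls was not tested.

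Microglia, which the CD45 dish removes, also express interferon-stimulated and MHC class I genes. Of 22 microglial markers 19 were tested, and none was called in limma, DESeq2 or edgeR, with 0 at an unadjusted p under 0.05 in limma. Their median was 0.55 in quiescent cells, where 8 of the 19 had an unadjusted p under 0.05 and a rise (4.21% of all genes did). It was −0.12 in activated cells and 0.19 over both states. The list summed to 2375, 3099 and 3786 in quiescent WT and 4423, 4349 and 3155 in quiescent *SOD1* G93A libraries. In activated cells it summed to 2273, 3291 and 2147 in WT and 2766, 1936 and 2156 in *SOD1* G93A libraries, and the genotypes overlapped in both states. *Sall1*, the most abundant of the list and a gene that other neural cells also express, had 777 to 972 normalized counts in the quiescent and 597 to 748 in the activated libraries. *Aif1* had 1 to 20 reads per library and no marker was at 0 in all 12. The part of residual microglia in the rises was not tested.

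Among the genes with the largest falls outside those lists, *2610507I01Rik*, a noncoding transcript on chromosome 11 (59199836 to 59202385), had 19.6, 31.4 and 16.6 normalized counts in quiescent WT and 2.12, 6.74 and 5.93 in quiescent *SOD1* G93A astrocytes. In activated cells it had 15.8, 15.4 and 17.7 against 2.31, 4.40 and 6.11. It fell by 1.91 (standard error 0.31, adjusted p = 0.0024, limma) with no overlap, on 2 to 10 reads per *SOD1* G93A library. *Dlk1*, a Notch-like protein expressed from the paternal allele, had 39.3, 23.2 and 86.3 against 19.6, 12.8 and 7.41 in quiescent and 57.3, 59.1 and 43.6 against 20.8, 36.3 and 26.5 in activated cells, and fell by 1.33 (adjusted p = 0.016, limma). *H19*, a noncoding transcript expressed from the maternal allele, had 34.4, 26.0 and 55.9 against 20.6, 24.3 and 22.2 in quiescent and 495, 351 and 340.0 against 163, 189 and 181 in activated cells, and fell by 0.91 (adjusted p = 0.004, limma).

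Falls with no overlap in either state were also those of *Fam135b* (−1.07), the membrane-repair gene *Dysf* (−1.003), the calcium-binding *S100a6* (−0.97), the neuronal vesicle adaptor *Ap3b2* (−0.93), the glucuronosyltransferase *Ugt1a6a* (−0.89) and the axon guidance gene *Draxin* (−0.87). *Fam135b* was called in 9 of 12 fits without 1 library. *S100a6* had 44.2, 32.8 and 37.1 normalized counts against 17.5, 14.8 and 20.7 in quiescent and 35.7, 40.0 and 39.9 against 18.5, 16.5 and 28.5 in activated cells (adjusted p = 0.0043, limma). *Draxin* had 432, 459 and 374 against 307, 289.9 and 295 in quiescent and 80.6, 66.5 and 47.3 against 21.9, 22.02 and 36.6 in activated cells (adjusted p = 0.006, limma). *Ugt1a6a* shares its last exons with the other genes of the Ugt1a cluster, so its reads are uncertain. Of 26 matrix genes tested the basement membrane gene *Nid1* (−0.63) and the proteoglycan *Vcan* (−0.37) fell (1.29% of all genes) and the median was 0.02. In activated cells alone 5 of the 26 were called higher (4.57% of all genes) and 6 lower (2.56%). Of 26 Notch and gliogenic genes *Dll3* (−0.73) and the stem cell factor *Sox2* (−0.29) fell, *Jag1* rose, and the median was −0.02. *Dll3* was called in 3 of 12 fits without 1 library.

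Groups tied to mutant SOD1 toxicity were read against the 3.27% of all genes that were called. Of 36 chaperones and genes of the unfolded protein response *Dnajb9*, a co-chaperone of the endoplasmic reticulum, fell by 0.24 and the median was −0.11. Their median was −0.16 in quiescent and −0.01 in activated cells. In activated cells alone 4 of the 36 were called higher (4.57% of all genes) and 1 lower (2.56%). Of 28 other ALS-linked genes tested *Ccnf*, the cyclin F gene, fell by 0.45 and the median was −0.11. Calls were kept in 2 and 4 of the 12 fits without 1 library for *Dnajb9* and *Ccnf*, and in 3 for *Gstp1*. Of 27 genes of DNA replication and mitosis 0 were called in limma (9 at an unadjusted p under 0.05, all lower, against 16.5% of all genes in either direction), 1 in DESeq2 and 0 in edgeR, 17 were lower in both states (29% of all genes) and the median was −0.12. None of 19 Hox genes, which mark hindbrain and spinal cord, could be tested, and each had 3 or fewer reads in every library.

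**Figure D3:**
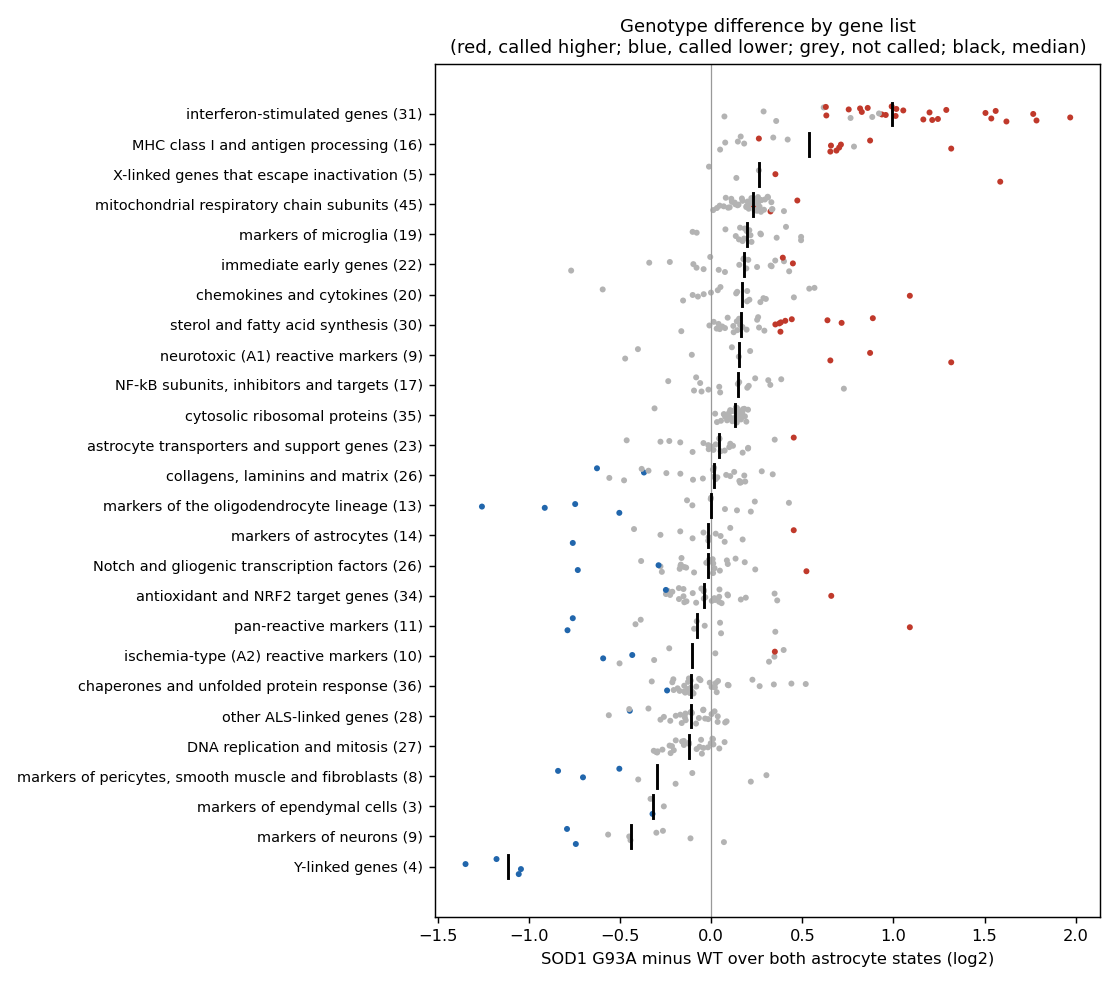
Difference between *SOD1* G93A and WT over both states (x axis, log2) for the members of each gene list with at least 3 genes tested, 1 point per gene, with genes called higher in red, called lower in blue and not called in grey, and the list median as a black bar. Interferon-stimulated genes have a median of 0.99 and the Y-linked genes of −1.12, against −0.00 over all genes tested.

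Whether the genotype difference itself changed with state was tested as an interaction. It was called in 30 of 11807 genes (0.254%), in 29 of them with a larger value in activated cells (0.246%), and 12 of the 30 are interferon-stimulated genes of the list. Of the 386 genes called over both states 19 were also called for the interaction and 97 had an unadjusted p under 0.05 for it. For *H2-T23* (0.15), *Sox10* (0.02), *Thy1* (0.14) and *Dio2* (0.68) it was not called, with adjusted p-values of 0.95, 0.99, 0.87 and 0.16 (limma), which does not show that the states were alike. The lipid genes *Acss2* (0.51) and *Insig1* (0.42) were not called for it either, with adjusted p-values of 0.49 and 0.44 (limma).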

How the data were processed

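STAR 2.7.3a (mm10), RSEM and DESeq2 under R 3.6.1 were the authors' tools for alignment, counting and normalization. The signal is the normalized count as deposited. All checked values (100%) were whole reads within 1e-04 once scaled by 1 factor per library. The authors' own comparison columns (mean, log2 fold change, standard error, statistic, p and adjusted p) and the 18 library columns of the microglia tables were not used.

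Genes with a mean of at least 10 in both tables were fitted as log2(value + 1) with limma 3.58.1 (with a trend) in R 4.3.3, with state and genotype as terms and Benjamini-Hochberg adjustment over 11807 genes. DESeq2 1.42.0 and edgeR 4.0.16 on recovered reads were alternatives. Named genes were *Sod1*, the 15 largest rises and 15 largest falls among called genes without overlap in either state, up to 4 called genes per list by size of change, up to 5 called interactions of each sign by size, *Xist*, the Y-linked genes and 8 markers. Other list members, *Irf7*, *Isg15*, *B2m* and *Olig1* among them, were picked after their values were seen. The members and lists were chosen with earlier results of these data known. Positions are from GENCODE M21 (23379 symbols matched directly, 650 by an older name, 382 unmatched).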

Additional observations from a re-analysis of the deposited data

Results flagged for a closer look

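These genes were flagged because the difference between *SOD1* G93A and WT itself differed between activated and quiescent astrocytes in a tested interaction (log2, activated minus quiescent, adjusted p under 0.05, limma). *Usp18* (2.4839, adjusted p = 0.0017, limma), *Oasl2* (2.0834, adjusted p = 0.0027, limma) and *Ifit3* (2.0488, adjusted p = 0.0044, limma) were also called higher over both states. So were *Ifit1* (1.9781), *Cxcl10* (1.2363) and *H2-Q4* (1.1415). That call is made on the average difference, and in quiescent cells alone none of these genes was called in limma. *Rtp4* had an interaction of 2.4175 and *Xaf1* of 2.0857, and both were called over both states.

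*Samd9l* had an interaction of 2.523 (adjusted p = 0.026, limma) and was not called over both states, with 17.2, 23.2 and 17.1 normalized counts in quiescent WT and 22.7, 24.9 and 8.89 in quiescent *SOD1* G93A astrocytes. In activated cells *Samd9l* had 17.4, 16.6 and 14.04 against 112, 74.9 and 81.4. *Dscaml1*, a cell adhesion gene, was the single gene with a negative interaction (−1.4596, adjusted p = 0.0027, limma), with 302, 301 and 273 against 314, 298 and 381 in quiescent and 54.8, 58.5 and 48.8 against 18.5, 22.02 and 24.4 in activated cells.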

How the results depend on the processing

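Of 386 called genes over both states, the count moved by more than 1.5 times under these settings: 241 in limma without a trend, 581 in DESeq2, 1449 with the Y-linked level as a term (83 shared), 140 above 1.5-fold and 5 at an adjusted p under 0.001 and more than 2-fold. Chosen after seeing the data, log2 depth as a term within each state gave 1537 and reads thinned to the shallowest library 233. With replicate number as a block (replicate block) the counts were 241 over both states and 15 for the interaction, and 0 of 45 respiratory chain subunits were called. In quiescent cells 0 genes were called (482 at an unadjusted p under 0.05, limma), but 1207 in activated cells. Same-numbered libraries correlated at −0.454 to 0.135, so the numbers gave no pairs. Quiescent WT replicate 3 and *SOD1* G93A replicate 1, the deepest of their groups, correlated at 0.54. Quiescent WT replicate 1 and *SOD1* G93A replicate 3, the shallowest, correlated at 0.381. The part of depth in these correlations was not tested.

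Without 1 library the calls ranged from 204 to 539 over both states, from 1 to 4 in quiescent cells (7 with all), from 342 to 1141 in activated cells (842 with all) and from 13 to 57 for the interaction (30 with all). The omission of activated WT replicate 1, 2 or 3 or quiescent *SOD1* G93A replicate 2 moved the first, and that of any quiescent library the second. Activated WT replicates 1 and 2 and activated *SOD1* G93A replicate 2 moved the activated count. All quiescent WT replicates, quiescent *SOD1* G93A replicate 2, activated WT replicates 1 and 3 and activated *SOD1* G93A replicates 1 and 3 moved the interaction.

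With the Y-linked level as a term the sign turned for *Ifit3* (−0.20), *F2rl2* (−0.17), *H2-T23* (−0.0168), *Ddx58* (−0.20), *Uty* (0.76), *Eif2s3y* (0.44), *H2-D1* (−0.26), *Cxcl10* (−0.62), *Ifit1* (−0.28), *Tap1* (−0.22), *Acsbg1* (−0.22), *Dnajb9* (0.0262), *Jag1* (−0.25), *Rtp4* (−0.66) and *Xaf1* (−0.28), and the cause was not tested. Of 71 named called genes, 54 were called in every fit without 1 library. The limits are 3 libraries a group whose origin the labels do not give, genotypes that differ in their sex-linked transcripts, shallow libraries in 1 genotype after activation, and a human transgene that was not measured.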

Other observations

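A few genes of growth factor signalling, picked because they were called, rose. *Fgf1*, a fibroblast growth factor, had 233, 223 and 233 normalized counts in quiescent WT and 345, 314 and 289 in quiescent *SOD1* G93A astrocytes, and 149, 186 and 173 against 273, 249 and 326 in activated cells, with no overlap and a difference of 0.59 (adjusted p = 0.0012, limma). The feedback inhibitors *Spry1* (0.50, adjusted p = 0.0011, limma), *Spry4* (0.40, adjusted p = 0.0011, limma) and *Spry2* (0.27, adjusted p = 0.029, limma) and the ERK phosphatase *Dusp6* (0.25, adjusted p = 0.045, limma) were called higher. Their relatives *Spred1* (0.10) and *Spred2* (0.04) and the pathway target *Etv5* (0.03) were not called, and no list of this pathway was tested.

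*Tlr3*, the endosomal receptor of double-stranded RNA, was likewise chosen after its values were seen. It had 81.0, 77.9 and 72.5 normalized counts against 118, 112 and 138 in quiescent and 125, 127 and 116 against 235, 220.2 and 208 in activated cells, with no overlap and a difference of 0.75 (adjusted p = 0.00015, limma). *Entpd4*, a nucleotidase of the Golgi, rose by 0.65 (adjusted p = 0.00015, limma). Of imprinted genes beside *Dlk1* and *H19*, *Nnat* fell by 0.26 (adjusted p = 0.012, limma), and *Meg3* differed by −0.61 and was not called (adjusted p = 0.15, limma).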
